A study of Sus scrofa with 6 samples.

Results

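Genes that mark blood vessels were examined in the ampulla of the pig oviduct: 40 marker genes of blood endothelium, lymphatic endothelium and pericytes, chosen as a list by cell type. Of the 40, 37 had a row, matched by gene symbol, among the 35670 genes of the deposited count table. SOX7, SELE and AQP7, the other 3, could not be matched by symbol and are not analysed here. Ampulla tissue of Sus scrofa was collected at 2 stages of the cycle, with 3 libraries labelled post-ovulatory and 3 labelled early luteal, all female and without any treatment named in the labels. The ampulla is the wide segment of the oviduct in which eggs are fertilised, and the early luteal stage is the time when corpora lutea form after ovulation. The labels do not say whether the 3 libraries of a stage came from separate animals, and they give no breed or age.

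Blood vessels are lined by endothelial cells, which are joined by cadherin and immunoglobulin-type adhesion molecules and hold their identity through ETS and SOX transcription factors. Capillaries and venules are wrapped by pericytes, contractile cells that depend on platelet-derived growth factor from the endothelium. Lymphatic vessels drain tissue fluid and are set apart by the homeobox factor PROX1. In the reproductive tract, vessel tone, leakiness and growth vary with the ovarian steroids. Several of the 40 genes are also used outside vessels: ICAM1 and VCAM1 by epithelium, stroma and immune cells, PDPN by mesothelium and stroma, and MCAM by smooth muscle.

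Levels are given in CPM, the counts of a gene per 1000000 counts of the TMM-scaled library total, and differences as log2 fold changes of early luteal over post-ovulatory tissue from edgeR's quasi-likelihood test across all genes. CPM is not corrected for gene length, so levels are compared between libraries. Sums of CPM, the part of a gene in a sum and the choice of genes by mean CPM also depend on gene length. Library totals ran from 7370723 to 30954222 counts, and the detection floor used here, 3 counts in a library, equals 0.0959 CPM in the deepest library and 0.406 CPM in the shallowest on this scale, early luteal replicate 2. That library correlated least with the others, at a Pearson correlation across genes of 0.802 to 0.865, whereas the other 5 correlated with each other at 0.882 to 0.945. Between 0.0270% and 0.101% of a library's counts fell on the 37 genes. Epithelial and vascular markers that define the tissue had counts in all 6 libraries: EPCAM stood at 385 to 1093 CPM, the ciliary factor FOXJ1 at 79.3 to 654, PECAM1 at 12.5 to 87.8, CDH5 at 14.9 to 58.6 and RGS5 at 12.9 to 39.5.

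No vascular marker passed the threshold of an adjusted p of 0.05 between the stages. Of the 37 genes with a row, 36 had enough counts to be tested, and 32 of these lay lower and 4 higher in early luteal tissue. Over all 17920 tested genes 51.8% lay lower. The median log2 fold change was -0.60 over the 36 markers and -0.03 over all tested genes. In bulk tissue, fewer vascular cells and less RNA per vascular cell cannot be told apart. Markers of other cell types also lay lower, in 9 of 10 cases for stroma (median -0.71), 8 of 8 for macrophages (-0.55) and 7 of 8 for T and NK cells (-0.62), while 9 of 10 smooth muscle markers lay higher (0.63). Epithelial markers lay on both sides, with 3 of 6 secretory (median -0.05) and 4 of 7 ciliated ones (-0.01) lower. The secretory ones ran from -2.31 (OVGP1; edgeR, adjusted p = 0.711) to 0.72 (KRT7). OVGP1 stood at 7302, 156 and 10688 CPM in post-ovulatory and 292, 1017.5 and 2356 CPM in early luteal replicates 1, 2 and 3. The part of these other cell types in the vascular values was not tested. The edgeR test called 0 of the 36 (0% of all tested genes), and 2 of them, PLVAP and ENG, had an unadjusted p under 0.05, where 7.11% of all tested genes did. DESeq2 called 0 of the 36 (0.986% of all genes with an adjusted p). The limma voom test called 0 with equal weights (0%) and 0 when samples were weighted by quality (0.0502%). The 3 libraries of one stage lay apart from the 3 of the other in 3 of the 36 genes, PLVAP, ENG and CALCRL, all lower in early luteal tissue. Over all tested genes the stages did not overlap in 17.2%, and in 9.57% with the early luteal libraries lower. The share of the markers, 3 of 36, was near the second of these and below the first.

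**Figure D1:**
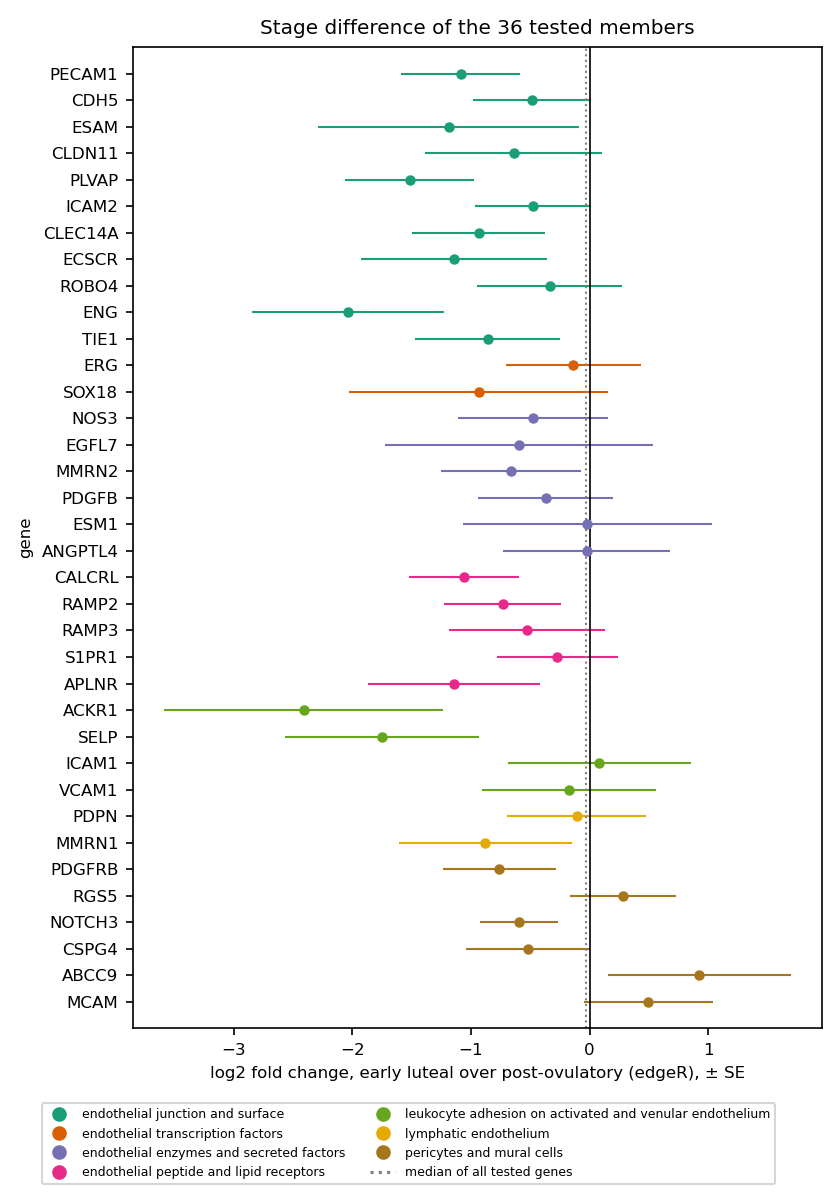
Log2 fold change of early luteal over post-ovulatory tissue (horizontal axis, edgeR, bars show the SE) for the 36 tested markers (vertical axis), coloured by role; the dotted line is the median of all tested genes. Points lie left of 0 for 32 genes, with ACKR1 at -2.41 and ENG at -2.03 farthest, while ICAM1, RGS5, MCAM and ABCC9 lie to the right.

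A single library of each stage stood at the end of the range for most markers. Early luteal replicate 2 was the lowest of the 6 libraries in 23 of the 36 markers, and in 39.1% of all tested genes. Post-ovulatory replicate 2 was the highest in 21 of the 36, and in 14.2% of all tested genes. Markers of some other cell types shared this. Post-ovulatory replicate 2 was the highest in 8 of 10 stromal markers, and early luteal replicate 2 the lowest in 7 of 8 T and NK cell rows. For the 10 smooth muscle markers these counts were 0 and 0. Set against the mean of the other 2 libraries of its own stage, early luteal replicate 2 stood at under 0.5 times in 22 of the 36 markers (31% of all tested genes) and post-ovulatory replicate 2 at over 2-fold in 14 (9.22% of all tested genes). The median of these within-stage ratios was 0.415 for early luteal replicate 2, where the median of all genes was 0.853, and 1.84 for post-ovulatory replicate 2, where it was 0.987. Early luteal replicate 1 stood at a median of 1.85 times the other 2 of its stage, where all genes stood at 1.04.

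Leaving out these libraries changed the balance of the markers. Without early luteal replicate 2, 27 of the 36 lay lower in early luteal tissue (49.4% of all genes) with a median of -0.37. Without post-ovulatory replicate 2, 25 lay lower (50% of all genes) with a median of -0.31. Without both, an alternative chosen after seeing the data, 18 lay lower and 18 higher (47.7% of all genes lower), and the median was -0.02 against 0.03 over all genes. Early luteal replicate 1 acted in the other direction: without it 31 lay lower (52.7% of all genes) with a median of -1.07. In that fit the stages did not overlap in 18 of the 36, all with early luteal tissue lower (17.9% of all genes). PLVAP and ENG stayed lower in each of these fits, with log2 fold changes of -0.92 and -1.23 when both libraries numbered 2 were left out (edgeR, adjusted p = 0.507 for both).

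**Figure D2:**
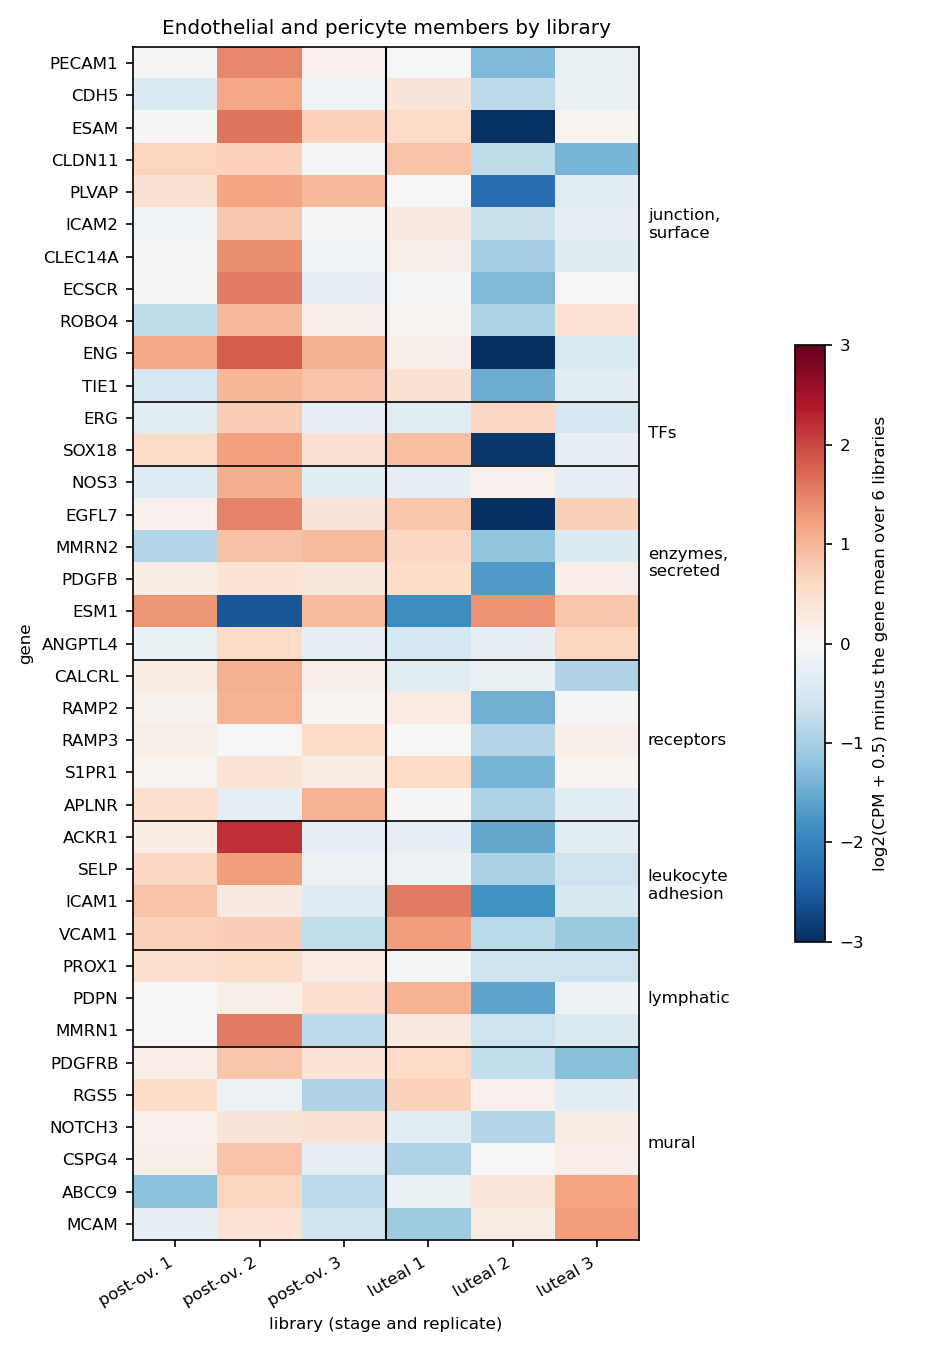
Level of the 37 markers with a row (vertical axis, grouped by role) in each library (horizontal axis), as log2(CPM + 0.5) minus the mean of that gene over the 6 libraries; red is above and blue below the mean, and the colour scale ends at -3 and 3. The column of post-ovulatory replicate 2 is mostly red and that of early luteal replicate 2 mostly blue; among the pericyte genes early luteal replicate 2 is the lowest library for 1 of 6, and post-ovulatory replicate 2 stays mostly red.

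**Figure D3:**
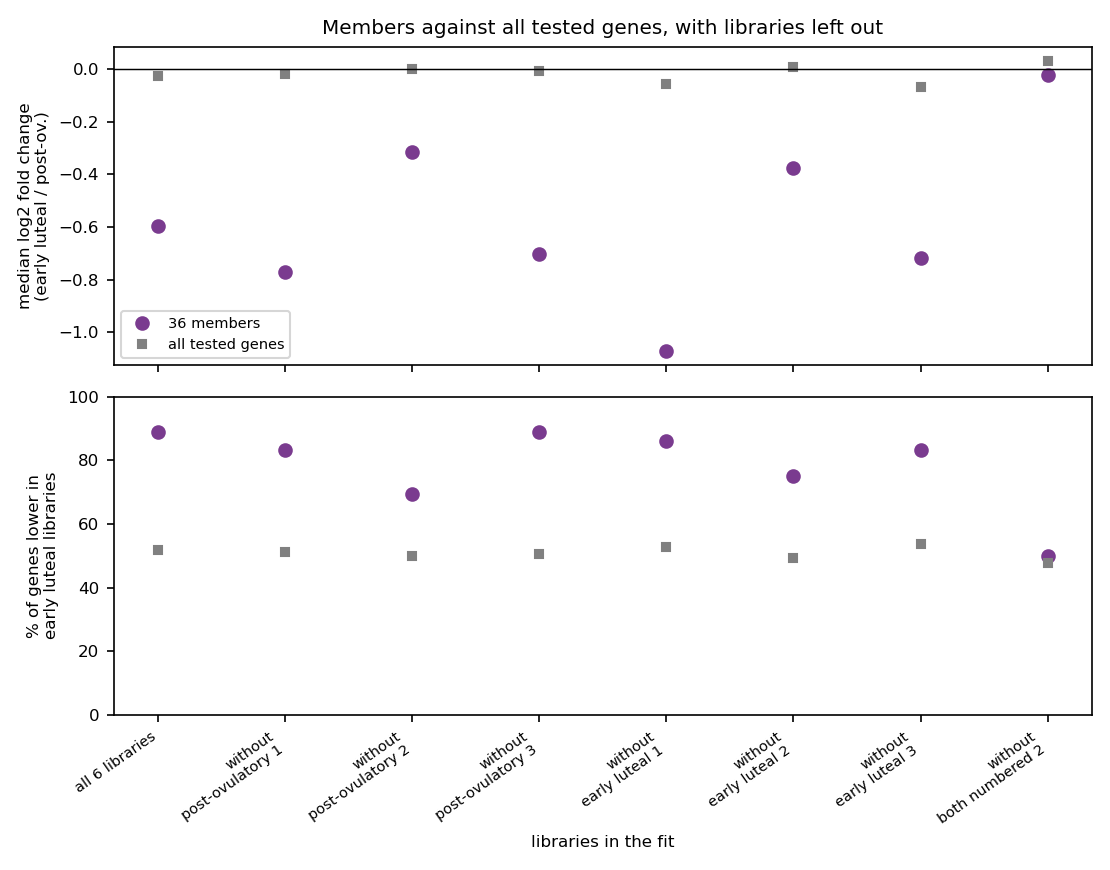
Median log2 fold change (upper panel) and percentage of genes lower in early luteal tissue (lower panel) for the 36 markers (purple circles) and all tested genes (grey squares), with all 6 libraries and with libraries left out (horizontal axis). The marker median runs from -1.07 without early luteal replicate 1 to -0.02 without both libraries numbered 2.

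The junction and surface genes of blood endothelium lay lower in early luteal tissue in 11 of 11 cases, with a median of -0.93. PLVAP, which forms the diaphragms of fenestrated capillaries (ENSSSCG00000037025, chromosome 2, 60324565 to 60344450 in the RefSeq annotation of Sscrofa11.1), stood at 37.5, 62.4 and 53.5 CPM in post-ovulatory replicates 1, 2 and 3 and at 26.7, 5.15 and 21.3 CPM in the early luteal ones. Each early luteal library lay below each post-ovulatory one, and the means were 17.7 ± 11.2 (SD, n = 3) against 51.1 ± 12.6 CPM. Its log2 fold change was -1.52 ± 0.54 (SE; edgeR, unadjusted p = 0.0225, adjusted p = 0.677).

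ENG, or endoglin, a co-receptor for TGF-beta family ligands on endothelium (ENSSSCG00000005625, chromosome 1, 268309379 to 268343861), stood at 42.4, 67.7 and 40.3 CPM in post-ovulatory and 21.6, 0.948 and 13.8 CPM in early luteal replicates 1, 2 and 3. The stages did not overlap, and the means were 50.2 ± 15.2 against 12.1 ± 10.4 CPM (SD, n = 3). The value of early luteal replicate 2 rested on 7 counts. The log2 fold change was -2.03 ± 0.81 (SE; edgeR, adjusted p = 0.685), and it was -1.502 without early luteal replicate 2.

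The most widely used endothelial markers did not separate the stages. PECAM1, an adhesion molecule of endothelial junctions, stood at 31.6, 87.8 and 35.4 CPM in post-ovulatory and 32.5, 12.5 and 27.5 CPM in early luteal replicates 1, 2 and 3. Post-ovulatory replicate 2 was high and early luteal replicate 2 low, and the other 4 libraries lay between 27.5 and 35.4 CPM. Its log2 fold change was -1.09 ± 0.50 (SE; edgeR, adjusted p = 0.685), and -0.16 without both of these libraries. CDH5, the cadherin of endothelial junctions, stood at 19.2, 58.6 and 23.9 against 34.3, 14.9 and 22.9 CPM. Its fold change was -0.49 ± 0.50, and without both libraries numbered 2 it was 0.41, in the opposite direction.

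The other 7 junction and surface genes overlapped between the stages. CLEC14A, a C-type lectin of endothelium, stood at 11.4, 32.0 and 10.8 against 13.5, 5.55 and 9.04 CPM, and TIE1, a receptor tyrosine kinase that acts with the angiopoietin receptor, at 7.82, 23.0 and 20.6 against 15.5, 3.66 and 8.98. ESAM, an endothelial adhesion molecule, had 0 counts in early luteal replicate 2 and stood at 3.50 to 11.5 CPM in the other 5 libraries. ICAM2, a ligand of leukocyte integrins, ROBO4, a guidance receptor that stabilises vessels, ECSCR and CLDN11, a claudin, had log2 fold changes from -1.15 (ECSCR) to -0.34 (ROBO4). CLDN11 differed from the rest in its order, since early luteal replicate 3 (1.13 CPM) was its lowest library and early luteal replicate 1 (7.21) its highest.

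**Figure D4:**
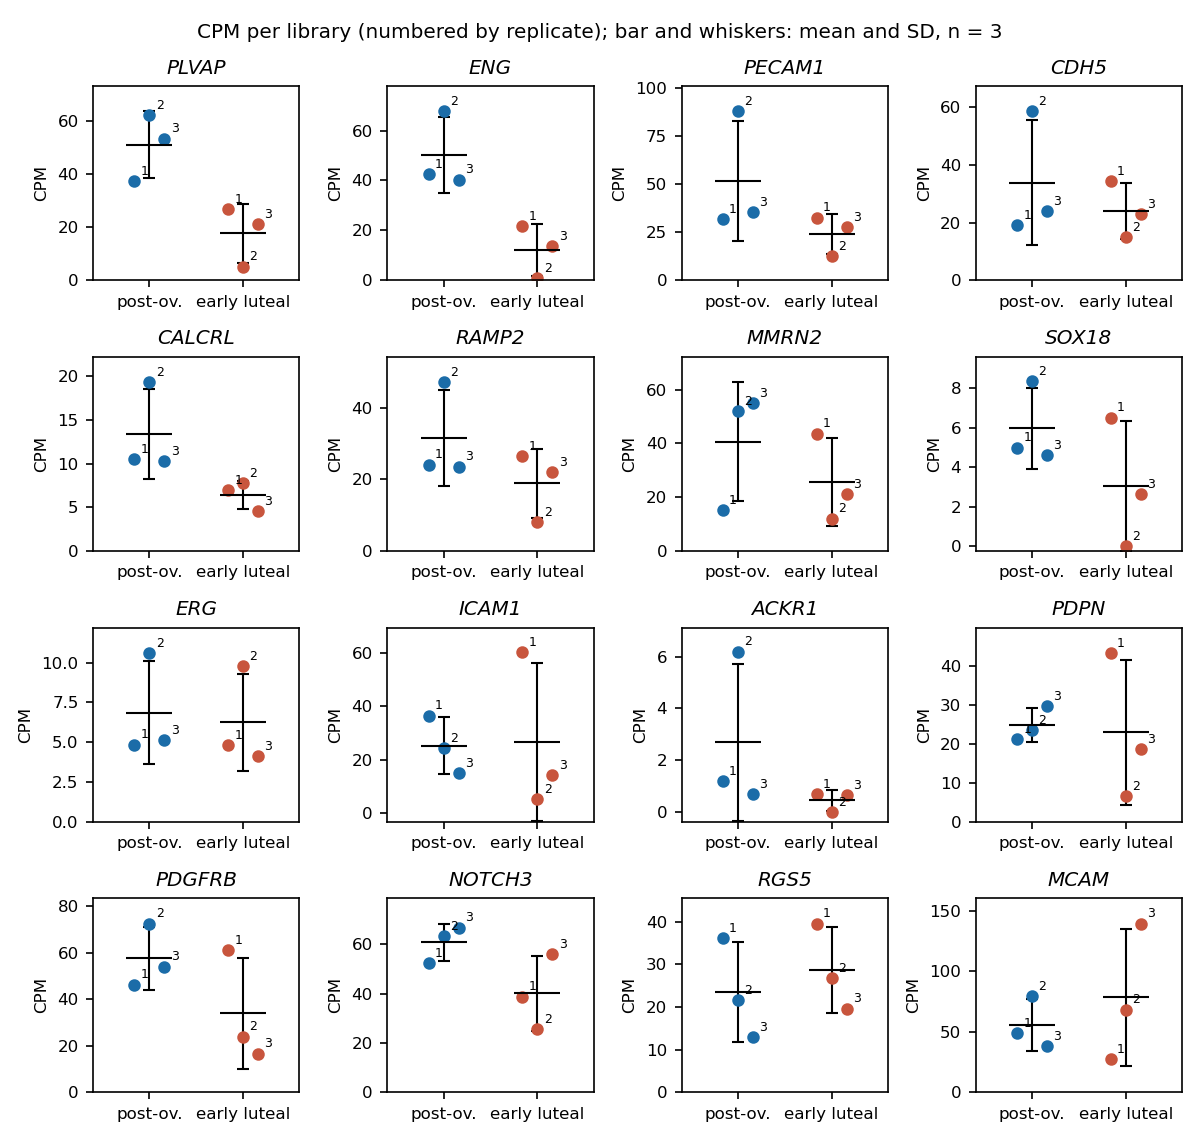
CPM of 16 markers in each library (points numbered by replicate; vertical axes in CPM), by stage (horizontal axis); the bar is the mean and the whiskers the SD of 3 libraries. PLVAP, ENG and CALCRL show early luteal points below all post-ovulatory ones, PECAM1 and CDH5 a high post-ovulatory replicate 2, and ICAM1, PDPN and MCAM a wide spread among early luteal libraries.

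The 2 endothelial transcription factors differed in which library was low. ERG, an ETS factor that maintains endothelial identity, stood at 4.84, 10.6 and 5.12 CPM in post-ovulatory and 4.83, 9.75 and 4.12 CPM in early luteal replicates 1, 2 and 3, so that replicate 2 was the high library in both stages. Its log2 fold change was -0.14 ± 0.57 (SE; edgeR, adjusted p = 0.965). SOX18, a SOX factor of vessel and lymphatic development, stood at 4.99, 8.34 and 4.60 against 6.51, 0 and 2.66 CPM, with 0 counts in early luteal replicate 2. At that depth 0 counts allow up to 0.406 CPM. Early luteal replicate 2 was thus above the mean of the other early luteal libraries for ERG, at a ratio of 2.18, while it held no count of SOX18, ESAM, EGFL7 or ACKR1.

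Among enzymes and secreted factors, all 6 with a row lay lower in early luteal tissue, with a median of -0.42, but 2 of them by next to nothing. MMRN2, a matrix glycoprotein deposited by endothelium, stood at 15.1, 51.9 and 54.9 CPM in post-ovulatory and 43.7, 12.1 and 21.0 CPM in early luteal replicates 1, 2 and 3 (log2 fold change -0.66 ± 0.59, SE). The range of each stage covered most of the other. NOS3, the endothelial nitric oxide synthase that relaxes vessels, stood at 2.68, 8.46 and 2.88 against 3.03, 4.06 and 2.93 CPM, a single high library among 5 between 2.68 and 4.06. PDGFB, the ligand by which endothelium recruits pericytes, stood at 14.2, 16.4 and 15.4 against 18.0, 3.39 and 14.1 CPM. The post-ovulatory libraries were close together, and early luteal replicate 2 alone was far below the other 5.

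EGFL7, secreted by endothelium and bound to matrix, had 0 counts in early luteal replicate 2 and 5.96 to 16.04 CPM in the other 5 libraries. ESM1, a proteoglycan of growing vessel tips, had a pattern of its own: 20.1, 0.884 and 15.2 CPM in post-ovulatory and 1.74, 20.3 and 14.1 CPM in early luteal replicates 1, 2 and 3. Post-ovulatory replicate 2, the highest library for 21 markers, was its lowest, and early luteal replicate 2 its highest. Its means were 12.1 ± 9.99 and 12.1 ± 9.46 CPM (SD, n = 3), and its log2 fold change of -0.02 changed sign with DESeq2 size factors (0.01) and upper quartile scaling (0.06). ANGPTL4, an inhibitor of lipoprotein lipase, stood between 1.03 and 2.93 CPM, with a fold change of -0.02 that became 0.0003 under upper quartile scaling.

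The receptors for peptides and lipids on endothelium lay lower in 5 of 5 cases, with a median of -0.73. CALCRL, which binds adrenomedullin and CGRP once paired with a RAMP protein (ENSSSCG00000016031, chromosome 15, 92233264 to 92332459), stood at 10.5, 19.3 and 10.3 CPM in post-ovulatory and 6.96, 7.72 and 4.59 CPM in early luteal replicates 1, 2 and 3. The stages did not overlap, and early luteal replicate 2 was the highest of its stage here. The means were 6.42 ± 1.63 against 13.4 ± 5.16 CPM (SD, n = 3), and the log2 fold change was -1.06 ± 0.46 (SE; edgeR, unadjusted p = 0.0505, adjusted p = 0.685). It ranged from -1.22 to -0.70 as each library was left out.

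RAMP2, the partner that makes CALCRL an adrenomedullin receptor, stood at 24.1, 47.1 and 23.5 against 26.5, 7.99 and 22.01 CPM, and overlapped between the stages. RAMP3, the alternative partner, stood between 0.677 and 2.65 CPM. S1PR1, the sphingosine 1-phosphate receptor that tightens endothelial junctions, stood at 16.9, 21.1 and 18.7 against 24.4, 5.69 and 16.6 CPM. Its early luteal libraries lay above, below and just under the post-ovulatory range. APLNR, the apelin receptor, stood at 2.31, 1.14 and 3.58 against 1.55, 0.542 and 1.06 CPM (log2 fold change -1.14 ± 0.72, SE), with 4 counts behind the value of early luteal replicate 2.

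Among genes by which endothelium captures leukocytes, ACKR1 and SELP were sparsely counted. ACKR1, a chemokine-binding receptor of venules, stood at 1.19, 6.19 and 0.703 CPM in post-ovulatory and 0.709, 0 and 0.665 CPM in early luteal replicates 1, 2 and 3. The large fold change (-2.41 ± 1.18, SE; edgeR, adjusted p = 0.692) rested on post-ovulatory replicate 2, without which it was -0.97. SELP, the P-selectin that is stored in endothelium and platelets, stood at 1.79, 3.03 and 0.799 against 0.837, 0.271 and 0.465 CPM (-1.75 ± 0.82, SE), from 2 to 25 counts a library. The summed platelet markers stood at 6.69 to 13.0 CPM in post-ovulatory and 7.32 to 11.8 CPM in early luteal libraries, with both tested genes of 5 higher in early luteal tissue, and PPBP had no count in 5 libraries and GP1BB none in 4.

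ICAM1 and VCAM1 spread more among the early luteal libraries than among the post-ovulatory ones. ICAM1, a ligand of leukocyte integrins, stood at 36.5, 24.3 and 15.2 CPM in post-ovulatory and 60.3, 5.28 and 14.2 CPM in early luteal replicates 1, 2 and 3. Early luteal replicate 1 was the highest and replicate 2 the lowest of all 6. Its log2 fold change of 0.08 ± 0.77 (SE; edgeR, adjusted p = 0.984) was -1.35 without early luteal replicate 1. VCAM1, a ligand of lymphocyte integrins, stood at 17.3, 18.1 and 6.11 against 26.1, 5.83 and 4.59 CPM, also highest in early luteal replicate 1.

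The summed lymphocyte markers shared their highest and their lowest library with ICAM1. The summed level of 8 rows of T and NK cell genes was 61.6, 75.7 and 34.6 CPM in post-ovulatory and 87.5, 17.2 and 20.7 CPM in early luteal replicates 1, 2 and 3, with 7 of the 8 lower in early luteal tissue and CD8A and both rows of GZMA at 0 in early luteal replicate 2. Macrophage markers, all 8 of 8 lower, summed to 103 to 213 CPM in post-ovulatory and 75.1 to 202 CPM in early luteal libraries, none of them at 0. The part of these cells in the ICAM1 and VCAM1 values was not tested.

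Of the lymphatic markers, PROX1 was too sparse to test. PROX1, the factor that defines lymphatic endothelium, had 8, 5 and 13 counts in post-ovulatory and 4, 0 and 0 counts in early luteal replicates 1, 2 and 3, or at most 0.632 CPM, so that it fell below the filter on low counts. The libraries of the stages do not overlap in CPM, but at these counts the size of the difference is poorly determined and no test was made. MMRN1, a glycoprotein of lymphatic endothelium and platelets, stood at 4.77, 14.9 and 2.53 against 5.73, 2.85 and 3.32 CPM. Apart from post-ovulatory replicate 2, its 5 libraries lay between 2.53 and 5.73 CPM, and its log2 fold change of -0.88 ± 0.73 (SE) was 0.12 without that library.

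PDPN, or podoplanin, stood at 21.1, 23.5 and 29.6 CPM in post-ovulatory and 43.3, 6.64 and 18.7 CPM in early luteal replicates 1, 2 and 3 (log2 fold change -0.11 ± 0.59, SE; edgeR, adjusted p = 0.973). Early luteal tissue held both its highest and its lowest library. UPK3B, a mesothelial gene, was also highest in early luteal replicate 1, at 17.8 CPM, and lowest in early luteal replicate 2, at 0.677 CPM, with 0.745 to 5.98 CPM in post-ovulatory libraries. The 4 mesothelial markers with a row summed to 356 to 468 CPM in post-ovulatory and 401 to 485 CPM in early luteal libraries, nearly all of it WT1, which stood at 355 to 483 CPM. Unlike UPK3B, WT1 was highest in early luteal replicate 2, at 483 CPM, and stood at 383 CPM in early luteal replicate 1. KLK11 was also highest in early luteal replicate 2, at 0.948 CPM from 7 counts. Both tested markers of the 4 were higher in early luteal tissue, CALB2 had no count in 5 libraries and KLK11 none in 2. The part of mesothelium in the PDPN values was not tested.

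Pericyte genes lay on both sides of 0. In early luteal tissue 3 of the 6 lay lower and 3 higher (median -0.12), and early luteal replicate 2 was the lowest library for 1 of the 6, against 21 of the 28 blood endothelial markers. The summed level of the 6 ran from 180 to 258 CPM in post-ovulatory and from 157 to 249 CPM in early luteal libraries, whereas that of the blood endothelial markers ran from 356 to 644 and from 139 to 414 CPM. MCAM, which smooth muscle also uses, made up a large part of the pericyte sum. It held 49.2, 79.7 and 38.5 CPM of the post-ovulatory sums of 195, 258 and 180 CPM. In early luteal replicates 1, 2 and 3 it held 27.6, 68.4 and 139 CPM of 174, 157 and 249 CPM. The difference between the 2 groups of markers was not tested.

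NOTCH3, the Notch receptor of mural cells, and PDGFRB, the receptor for PDGFB, were the pericyte genes with the lowest p. NOTCH3 stood at 52.3, 63.4 and 66.8 CPM in post-ovulatory and 38.8, 25.7 and 56.1 CPM in early luteal replicates 1, 2 and 3 (log2 fold change -0.59 ± 0.32, SE; edgeR, adjusted p = 0.714). Only early luteal replicate 3 reached into the post-ovulatory range. PDGFRB stood at 46.3, 72.5 and 54.0 against 61.2, 24.0 and 16.6 CPM (-0.76 ± 0.48, SE; adjusted p = 0.741, edgeR). Early luteal replicate 1 lay above 2 of the post-ovulatory libraries, and without it the fold change was -1.48.

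PDGFRB is also made by fibroblasts. Of 10 stromal markers with a row, 9 lay lower in early luteal tissue (51.8% of all tested genes). An unadjusted edgeR p under 0.05 was found for 4 of the 10 (7.11% of all tested genes), and edgeR called 0 (0%). DESeq2 called 2 (0.986% of all genes with an adjusted p). They were the collagen gene COL1A1 (DESeq2, adjusted p = 0.00728) and PI16 (DESeq2, adjusted p = 0.0322), a marker of adventitial fibroblasts, both lower. Limma voom called 0 of the 10 with equal weights (0%) and 0 with quality weights (0.0502%). COL1A1 stood at 497, 597 and 184 CPM in post-ovulatory and 91.3, 135 and 104 CPM in early luteal replicates 1, 2 and 3. The summed level of the 10 was 1572 to 2997 CPM in post-ovulatory and 1209 to 1360.5 CPM in early luteal libraries, with none at 0 in any library. PDGFRA, the fibroblast receptor of the same family, stood at 37.8, 62.4 and 26.9 against 53.6, 25.3 and 7.78 CPM and shared with PDGFRB its highest library and its lowest. The part of stroma in the PDGFRB values was not tested.

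RGS5, a regulator of G protein signalling typical of pericytes, stood at 36.2, 21.6 and 12.9 CPM in post-ovulatory and 39.5, 26.7 and 19.6 CPM in early luteal replicates 1, 2 and 3. Both ranges shared the stretch from 19.6 to 36.2 CPM, and the log2 fold change was 0.28 ± 0.45 (SE; edgeR, adjusted p = 0.890). ABCC9, the regulatory subunit of a potassium channel of mural cells, stood at 0.968, 4.93 and 1.503 against 2.51, 3.93 and 7.31 CPM (0.92 ± 0.77, SE). Its fold change was 1.87 once post-ovulatory replicate 2 was dropped and 0.39 once early luteal replicate 3 was. CSPG4, or NG2, a proteoglycan of pericytes, stood between 4.19 and 15.5 CPM in all libraries (-0.52 ± 0.52, SE).

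MCAM, an adhesion molecule of pericytes, smooth muscle and endothelium, stood at 49.2, 79.7 and 38.5 CPM in post-ovulatory and 27.6, 68.4 and 139 CPM in early luteal replicates 1, 2 and 3. The early luteal libraries spanned the post-ovulatory range on both sides (log2 fold change 0.50 ± 0.55, SE; edgeR, adjusted p = 0.844), and without early luteal replicate 3 the value was -0.23. Smooth muscle markers had a like spread: the summed level of 10 genes was 3444, 5996 and 3088.5 CPM in post-ovulatory and 1116, 7208 and 10131 CPM in early luteal replicates 1, 2 and 3, with 9 of 10 higher in early luteal tissue and none at 0. Early luteal replicate 1 was lowest and early luteal replicate 3 highest in both MCAM and the summed muscle genes. The part of smooth muscle in the MCAM values was not tested.

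**Figure D5:**
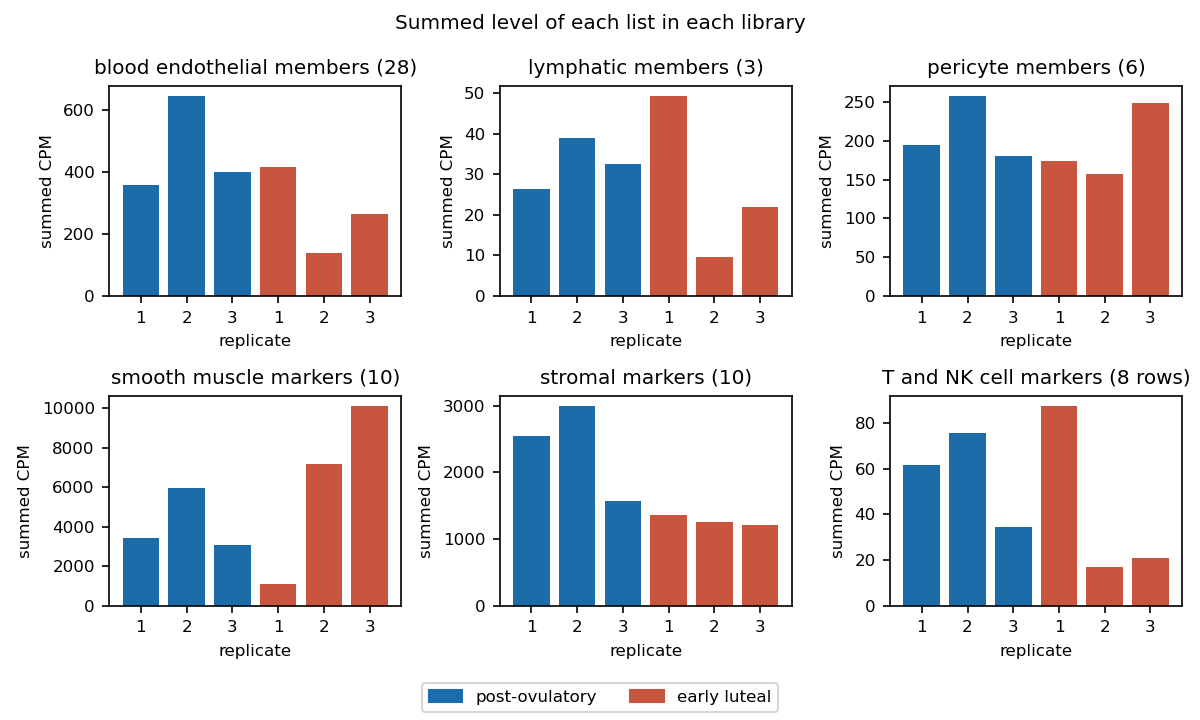
Summed CPM (vertical axes, from 0) of the vascular marker groups and of smooth muscle, stromal and T and NK cell markers in each library (horizontal axes, replicate number; colour gives the stage). Blood endothelial markers run from 139 CPM in early luteal replicate 2 to 644 CPM in post-ovulatory replicate 2, while pericyte markers stay between 157 and 258 CPM and smooth muscle markers between 1116 and 10131 CPM. The pericyte sum includes MCAM, at 27.6 to 139 CPM.

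Other genes of vessels came from lists that hold none of the 40 markers. They lay lower in early luteal tissue in 39 of 59 cases (51.8% of all tested genes), with a median of -0.37. Post-ovulatory replicate 2 was the highest library in 31 of the 59 (14.2% of all tested genes). Early luteal replicate 2 was the lowest in 25 (39.1%). The 63 with a row summed to 1662 to 2129 CPM in post-ovulatory and 2079 to 2577 CPM in early luteal libraries. Genes of high CPM weighed most in that sum, and some of these were higher in early luteal tissue. In post-ovulatory and early luteal libraries mean CPM was 331 and 423 for JAG1 and 211 and 306 for EMCN. For TM4SF1 it was 151 and 314. Of 27 other endothelial genes with a row, 20 lay lower and 7 higher in early luteal tissue (median -0.48), and of 13 arterial genes 7 lay lower and 6 higher (median -0.20). Of 7 other lymphatic genes tested 6 lay lower (median -0.20), and of 12 other pericyte genes 6 lay lower and 6 higher (median 0.08). None of the 59 passed the threshold in edgeR, and 8 had an unadjusted p under 0.05 (7.11% of all tested genes), 5 lower (3.54%) and 3 higher (3.57%) in early luteal tissue. DESeq2 and both forms of limma voom called 0 of the 59.

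TM4SF1, a tetraspanin-like surface protein of endothelium and epithelium, stood at 129, 172 and 151 CPM in post-ovulatory and 259, 439.5 and 243 CPM in early luteal replicates 1, 2 and 3 (log2 fold change 1.06 ± 0.31, SE; edgeR, adjusted p = 0.649). Its stages did not overlap, and early luteal replicate 2 was its highest library. FLT1, a receptor for VEGF that acts largely as a trap, lay below the post-ovulatory range in all 3 early luteal libraries, at 7.34, 4.88 and 7.38 against 11.2, 33.1 and 14.9 CPM (-1.58 ± 0.50, SE; adjusted p = 0.664, edgeR). GJA5, a connexin of arterial endothelium, stood at 2.71, 0 and 1.06 CPM in early luteal and 6.40, 18.7 and 3.04 CPM in post-ovulatory libraries, and GATA6, a factor of muscle and other tissues as well, at 171, 151 and 117 against 80.8, 103 and 97.9 CPM.

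The stages did not overlap in 10 of the 59 other vascular genes, a share near the 17.2% of all tested genes. By list these were 7 of the 27 other endothelial, 2 of the 13 arterial, 0 of the 7 lymphatic and 1 of the 12 pericyte genes. CCL21, a chemokine made by lymphatic endothelium, stood at 16.01, 32.7 and 17.2 CPM in post-ovulatory and 18.9, 3.39 and 6.92 CPM in early luteal replicates 1, 2 and 3, and NRP2, a co-receptor of VEGFC that other cells make too, at 13.0, 30.7 and 14.5 against 10.4, 37.1 and 46.0 CPM. CD248, or endosialin, of pericytes and fibroblasts stood at 17.8, 22.6 and 12.9 against 8.89, 0.135 and 5.19 CPM (log2 fold change -1.88 ± 0.93, SE), and its stages did not overlap. ANGPT1, the angiopoietin by which mural cells signal to endothelium, stood at 3.13, 4.29 and 7.55 against 3.16, 39.7 and 9.97 CPM, its mean raised by early luteal replicate 2.

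Early luteal replicate 2 was not low in every endothelial gene. Of the 27 other endothelial genes it was the lowest library in 12 (39.1% of all tested genes). It was the highest in 3 (27% of all tested genes). EMCN, an endothelial sialomucin, stood at 204, 213 and 215 CPM in post-ovulatory and 262, 434 and 223 CPM in early luteal replicates 1, 2 and 3, and KDR, the main VEGF receptor, at 41.6, 85.5 and 63.2 against 111, 79.9 and 79.3 CPM. In the same library ENG rested on 7 counts and ESAM, EGFL7, SOX18, ACKR1 and CLDN5 on 0. These genes, EMCN, KDR and CLDN5 among them, were singled out after their values were seen.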

How the data were processed

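Per the labels' protocols, stranded libraries of messenger RNA were made from total RNA of ampulla tissue and read in pairs. FastQC 0.11.4, Trim Galore, STAR and the build Sscrofa11.1 were used, per the submitters' processing notes. Counting tool, strand setting and annotation: not given in the sources used here. Hence overlapping and antisense genes are uncertain. The values are raw counts by Ensembl gene in a single table that the authors deposited, and all of its 6 value columns were used. A tab is missing in the header line, and its words were assigned to columns in their order and then matched to sample labels by name. The entry of early luteal replicate 3 lacks a letter of the label.

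Symbols came from a table of Ensembl identifiers (15623 matched). Positions are those of RefSeq genes of the same symbol. No sequence was used here. Genes were tested with edgeR 4.0.16 (R 4.3.3; TMM, filterByExpr, robust quasi-likelihood, two-sided), with Benjamini-Hochberg adjustment over 17920 genes. Each SE was obtained by dividing the size of the log2 fold change by the root of its F statistic. Alternatives were DESeq2 1.42.0, limma 3.58.1 voom, other scalings and filters, a replicate block and left-out libraries. The fit was tested on simulated counts with the same spread for all genes. It recovered 1 of 50 genes changed 2-fold and 14 of 50 changed 4-fold. At 8-fold it recovered 45 of 50 and at 16-fold 50 of 50. Of 17375 unchanged genes it called 5. Most 2-fold and 4-fold changes were thus missed in the simulation. No source says that replicates are separate animals: their spread, which the p-values reflect, may be technical. The SDs and SEs include the spread between libraries, whereas the detection floors cover counting error only.

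The members and lists were chosen with earlier results of these data known. Values in every library are given for a fixed panel (PECAM1, CDH5, PLVAP, PROX1, PDGFRB and RGS5), for the 2 members with the lowest p and the 2 with the highest mean CPM of each role group, for members whose stages do not overlap, and for the 2 genes with the lowest p of each other vascular list; further genes were named after their values were seen.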

Additional observations from a re-analysis of the deposited data

How the results depend on the processing

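None of the 36 markers passed the threshold under any of the alternatives run, including a threshold of 0.1; the filter of 1 CPM in 3 libraries left 34 of them. Over all genes, 8 were called with no filter on low counts, 175 by DESeq2 and 9 by limma voom with sample quality weights, and 0 under the other alternatives. Markers at an unadjusted p under 0.05 numbered 1 with library totals alone (6.42% of all genes), 4 with no filter (7.1%), 5 by DESeq2 (7.51%), 5 by limma voom with sample quality weights (14.2%, close to the share of the markers), and 0 to 6 as each library was left out (3.22% to 11.5%). Markers lower in early luteal tissue numbered 25 to 32 as each library was left out and 18 without both libraries numbered 2.

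Of 36 markers, 17 kept their direction under all alternatives and 19 did not. The sign differed under DESeq2 size factors (ESM1 0.014), upper quartile scaling (ESM1 0.064, ANGPTL4 0.00027), the filter of 1 CPM in 3 libraries (ESM1 0.0036), limma voom (ANGPTL4 0.073, ICAM1 -0.19) and limma voom with quality weights (ROBO4 0.067, ANGPTL4 0.46, MMRN1 0.12). Without both libraries numbered 2 it differed for CDH5 (0.41), ICAM2 (0.10), CLEC14A (0.024), ECSCR (0.11), ROBO4 (0.50), NOS3 (0.10), EGFL7 (0.53), PDGFB (0.11), ANGPTL4 (0.54), RAMP2 (0.032), S1PR1 (0.21), VCAM1 (0.40), PDPN (0.29) and MMRN1 (0.32). With single libraries left out the ranges that crossed 0 were -0.62 to 0.53 for ESM1, -1.38 to 0.22 for VCAM1, -0.82 to 0.15 for CDH5, -0.69 to 0.18 for ROBO4, -0.61 to 0.32 for ERG, -0.77 to 0.26 for NOS3, -0.62 to 0.37 for ANGPTL4, -1.29 to 0.12 for MMRN1, -1.35 to 0.56 for ICAM1, -0.95 to 0.32 for PDPN, -0.014 to 0.73 for RGS5, -0.79 to 0.062 for PDGFB, -0.74 to 0.12 for S1PR1 and -0.23 to 0.92 for MCAM. The cause was not tested.

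With the replicate number as a block, 0 markers and 0 genes in all were called, 2 markers had an unadjusted p under 0.05 and 32 lay lower, while ESM1 (0.030) and ICAM1 (-0.45) changed sign. Deviations of same-numbered libraries from their stage means correlated at 0.052, -0.082 and 0.13 across genes, and no label says that the numbers pair animals, so the number is taken as a name only. Sparse genes (PROX1, SELP, ACKR1, APLNR, RAMP3 and ANGPTL4) are limited by depth.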
